A study of Mus musculus with 24 samples.

Results

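How the RNA content of extracellular vesicles (EVs) relative to that of their parent T cells changed with GW4869 was asked feature by feature. The quantity is the log2 EV-to-cell ratio in GW4869 cultures minus the log2 EV-to-cell ratio in DMSO cultures, called the ratio change here. A negative ratio change means that a feature stood lower in EVs, relative to cells, with GW4869 than with DMSO. No feature was selected: all 4408 of the 4408 deposited features entered, of which 1366 were small RNA features and the others were long genes in which small fragments had been counted.

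The cells were CD4+ T cells of C57BL/6 mice, taken from lymph nodes and spleen, and all 4 groups behind the ratio change (12 of the 24 libraries, 3 per group) came from cultures stimulated for 3 days. DMSO cells and DMSO EVs came from cultures given the vehicle alone, and GW4869 cells and GW4869 EVs from cultures given an inhibitor of neutral sphingomyelinase. EVs were isolated from the culture media, RNA was extracted with Trizol, and no antibody or inhibitor dose was given for these cultures in the labels. Stimulated cultures given neither compound (plate-bound anti-CD3 at 2 µg/ml, anti-CD28 at 5 µg/ml, also 3 days) served as a second reference, and resting cultures entered only the scaling of the libraries and the estimate of the spread.

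Neutral sphingomyelinase makes ceramide, a lipid that takes part in the inward budding of vesicles inside multivesicular bodies. When these bodies fuse with the plasma membrane, the vesicles leave as exosomes, while other vesicles bud from the plasma membrane directly, and a culture medium holds both. Activated T cells release EVs that carry miRNAs, tRNA fragments, Y RNAs and pieces of longer RNAs, and which RNAs leave by which vesicle is not settled. Counts within a library are relative, so fewer vesicles and less RNA per vesicle cannot be told apart here.

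The miRNAs the results turn on are shown first, with the seed (bases 2 to 8) in capitals, because the 5 miRNAs whose ratio change passed the test share no seed. Sequences are from RefSeq (GRCm38.p6), which held a mature sequence for 184 of the 254 listed miRNAs. The last line gives miR-155-5p, an activation-induced miRNA of T cells whose ratio change did not pass.
miR-125a-5p: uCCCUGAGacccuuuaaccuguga
miR-125a-3p: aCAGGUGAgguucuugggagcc
miR-5121: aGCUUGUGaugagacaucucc
miR-6240: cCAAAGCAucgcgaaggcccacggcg
miR-2137: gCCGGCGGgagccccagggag
miR-6236: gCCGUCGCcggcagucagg
miR-155-5p: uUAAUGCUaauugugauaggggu

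The 21 bases of miR-5121 lie whole inside the small nucleolar RNA Snord33 (chr7:45126864-45126947, minus strand, GRCm38), at bases 3 to 23 of its 84, shown here in capitals from the GENCODE M21 transcript.
Snord33: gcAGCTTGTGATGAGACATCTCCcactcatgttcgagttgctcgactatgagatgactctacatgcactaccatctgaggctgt
A read of these bases fits both annotations, so the counts of Mir5121 and Snord33 may hold the same RNA.

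The small RNA features that passed the test were all lower in EVs relative to cells. Ratio changes were tested with edgeR (quasi-likelihood, p adjusted over all features by Benjamini and Hochberg), and 334 of the 4408 passed an adjusted p of 0.05 (7.58%), 77 higher (1.75%) and 257 lower (5.83%) with GW4869. RLE scaling in place of TMM gave 104 higher and 200 lower, and library totals 35 and 127, with the median of all features shifted by 0.18. Of the small RNA features 106 of 1366 were lower (7.76%) and 0 were higher. That count of lower features was 80 with RLE factors, 54 by DESeq2, 52 with library totals and 19 by limma-trend. It was 129 at a mean count of at least 50 and 5 with a replicate block by number. A fit to the 12 DMSO and GW4869 libraries alone gave 16. Leaving out 1 of these 12 from the main fit gave 31 (without GW4869 EVs replicate 3) to 168 (without DMSO EVs replicate 1). In all 12 such fits 30 were lower. No small RNA feature was higher under any alternative listed below, DESeq2 and limma included. At an unadjusted p under 0.05 edgeR gave 3 higher and 320 lower, against 378 higher and 652 lower of all 4408 features. The median ratio change was -0.42 over the small RNA features and -0.11 over all features. Over the small RNA features it was -0.22 with library totals. It ran from -0.58 (without DMSO EVs replicate 1) to -0.20 (without GW4869 EVs replicate 3) when 1 library was left out. The 77 features that rose were 76 long genes without a listed small RNA and 1 long gene that holds one.

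The number of calls depended on which libraries entered the fit. A fit to the 12 DMSO and GW4869 libraries alone called 45 features (9 higher, 36 lower), and all 45 were among the 334. That fit changed the scaling as well as the estimate of the spread, and moved the median of all features by 0.14. The common dispersion, edgeR's measure of spread between libraries, was 0.0556 over 24 libraries and 0.0719 over these 12. By group it was 0.118 in DMSO EVs and 0.0741 in GW4869 EVs, against 0.0352 and 0.0455 in DMSO and GW4869 cells, so the EV libraries under comparison were the most variable. DMSO EVs replicate 2 stood apart: long genes without a listed small RNA took 26.8% of its counts, against 44.7% and 37.0% in the other DMSO EVs. Leaving out 1 of the 12 libraries in turn gave 148 (without GW4869 EVs replicate 3) to 529 calls (without DMSO EVs replicate 1), and 16 of the 77 higher and 87 of the 257 lower features were called in all 12 of these fits. Without DMSO EVs replicate 2 the counts were 32 higher and 197 lower, and the median over small RNA features was -0.21. As a background, the same kind of contrast between cultures with DMSO and stimulated cultures without it (DMSO minus stimulated) called 818 of 4408 features (18.6%), 572 higher (13.0%) and 246 lower (5.58%). The contrasts share the DMSO libraries. Without DMSO EVs replicate 2 that count was 1284. Whether these 2 sets of cultures were prepared together is not stated.

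The ratio change is the difference of a response in EVs and a response in cells, and both are given beside it. In EVs 427 features were lower (9.69%) and 348 higher (7.89%) with GW4869 than with DMSO, and in cells 5 were lower (0.113%) and 127 higher (2.88%). For the 257 features with a lower ratio the median log2 response was -0.78 in EVs and 0.70 in cells. For the 77 with a higher ratio it was 1.18 in EVs and -0.45 in cells. These medians describe features chosen by the ratio change and test nothing. Both responses passed in opposite directions for 21 of the 334.

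**Figure D1:**
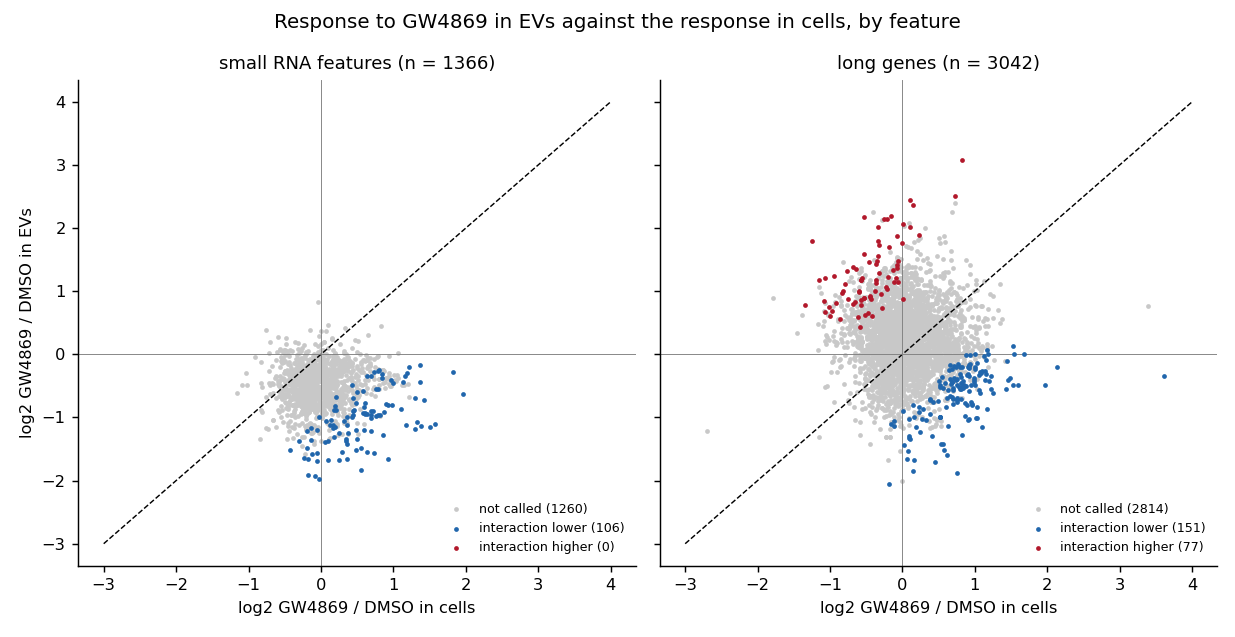
Log2 response to GW4869 in cells (x axis) and in EVs (y axis), each point 1 feature, small RNA features left and long genes right; on the dashed line the ratio change is 0. The 106 called small RNA features all lie below the line, and the 77 called higher features are all long genes.

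Nuclear tRNA fragments were called lower at about the rate of small RNA features as a whole. tRNAs carry amino acids to the ribosome, and enzymes such as angiogenin cut them into fragments that cells and vesicles hold. Of 780 features named by tRNA locus and fragment code, 59 were lower (7.56%, against 7.76% of small RNA features and 5.83% of all features) and 0 higher, with a median ratio change of -0.48. By DESeq2 30 were lower and 0 higher, and at an unadjusted p under 0.05 195 were lower and 2 higher. The codes are the authors', with no definition in the sources used here. Calls were most frequent for the code 5FR_1, with 35 of 172 lower (20.3%) and a median of -0.93. They were 8 of 58 for 3FR_2 (median -0.98), 7 of 207 for 3FR_1 (-0.36), 4 of 102 for 5_half_up (-0.19), 2 of 109 for 5FR_2 (-0.36) and 0 of 40 for 5FR_S (-0.23).

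Loci of 1 anticodon can share a sequence, so loci were also summed by anticodon and code, which left 170 sums in a fit of 3584 features. In that fit 67 features were higher (1.87%) and 209 lower (5.83%), among them 22 of the 170 tRNA sums, all lower. Of the 22, 13 were 5FR_1 sums, out of 31, and all 31 of the 5FR_1 sums had a ratio change below 0, from -2.22 to -0.18. The 12-library fit called 5 tRNA sums, each of the code 5FR_1. Without DMSO EVs replicate 2 the median over the 31 was -0.79, against -1.04 with it.

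**Figure D2:**
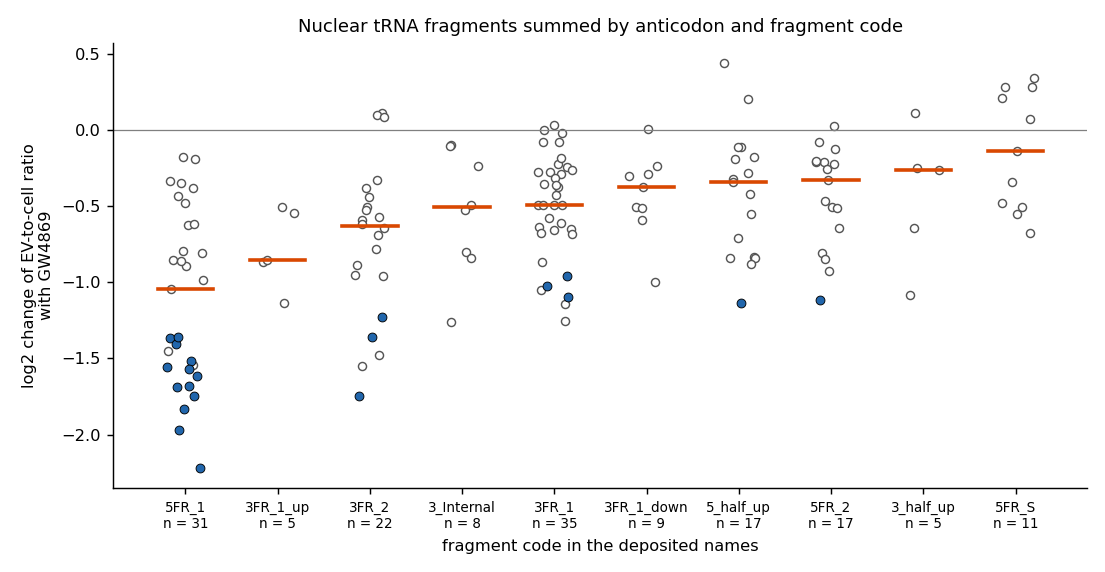
Ratio change (log2, y axis) of nuclear tRNA fragments summed by anticodon, grouped by fragment code (x axis, codes with at least 5 sums); filled points passed an adjusted p of 0.05 and bars are medians. The 5FR_1 column holds 13 of the 22 called sums and lies wholly below 0.

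The 5FR_1 fragments of tRNA-Ser-GCT, which reads AGC and AGU serine codons, had the lowest ratio change of any sum. They stood at 113, 98.2 and 70.5 CPM (edgeR's scaled count per library) in DMSO cells and at 206, 205 and 258 in GW4869 cells. In EVs they stood at 408, 648 and 463 CPM with DMSO and at 272, 282 and 217 with GW4869. The groups do not overlap in either compartment, and they moved in opposite directions: up in cells (log2 1.24, adjusted p = 0.00908) and down in EVs (-0.98, adjusted p = 0.0106). The ratio change was -2.22 ± 0.35 (SE), with an adjusted p of 0.000456, and 0.0305 in the 12-library fit. The log2 EV-to-cell ratio was 2.42 with DMSO, 0.20 with GW4869 and 2.08 in stimulated cultures. Among its 7 loci, tRNA-Ser-GCT-6-1 and tRNA-Ser-GCT-4-1 had ratio changes of -2.69 and -2.65 on their own.

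By amino acid, 5FR_1 features of serine tRNAs were lower for 10 of 16 loci (median -1.74), of leucine tRNAs for 9 of 23 (-0.92) and of arginine tRNAs for 5 of 9 (-1.34). Valine tRNAs had 3 of 16 lower (-1.42), tryptophan tRNAs 2 of 4 (-1.91) and glycine tRNAs 2 of 27 (-1.11). Over all 5FR_1 features 20.3% were lower, against 5.83% of all features, and loci of 1 anticodon may count the same reads. In the 12-library fit the lower loci were 5 of serine, 1 of leucine, 0 of arginine, 0 of valine, 1 of tryptophan and 2 of glycine tRNAs. For aspartate and lysine tRNAs 0 of 14 and 0 of 15 were called, with medians of -0.30 and -0.37, also 0 by DESeq2. Serine and leucine tRNAs both carry a long variable arm, and its part in these values was not tested. The leucine median of -0.92 stands beside -0.93 over all 5FR_1 features. The share of all counts in 5FR_1 fragments was 1.24, 1.71 and 1.54% in DMSO EVs and 1.30, 1.33 and 1.08% in GW4869 EVs, which overlap. In cells it was 0.414, 0.380 and 0.364% with DMSO and 0.452, 0.403 and 0.681% with GW4869.

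The next 5FR_1 sums with calls in the 12-library fit are those of glycine and tryptophan tRNAs. tRNA-Gly-CCC fragments stood at 519, 502 and 439 CPM in DMSO cells and 642, 555 and 836 in GW4869 cells, and at 1359, 2738 and 1965 in DMSO EVs and 871, 932 and 715 in GW4869 EVs. Neither compartment overlaps, and the highest DMSO value is that of EV replicate 2. Their ratio change was -1.75 ± 0.32 (adjusted p = 0.00177, and 0.048 in the 12-library fit). tRNA-Trp-CCA fragments stood at 145, 161 and 159 CPM in DMSO EVs and 64.3, 83.8 and 57.9 in GW4869 EVs, without overlap. In cells they overlap, at 27.3, 49.9 and 26.3 with DMSO and 40.5, 64.7 and 58.8 with GW4869. Their ratio change was -1.83 ± 0.34 (adjusted p = 0.00177, and 0.048 in the 12-library fit).

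The other 2 sums at the low end rest on fewer counts. tRNA-Ser-CGA 5FR_1, from 1 locus, had a ratio change of -1.97 ± 0.58 (adjusted p = 0.0347) and tRNA-Arg-CCG 3FR_2, also from 1 locus, of -1.75 ± 0.49 (adjusted p = 0.0289). They were called in 5 and in 6 of the 12 fits that leave out 1 library, and neither passed in the 12-library fit. Without DMSO EVs replicate 2 they were -1.56 and -1.42 and did not pass. Among single loci of the code 3FR_2, tRNA-Asp-GTC-1-6 fell with a ratio change of -2.59 ± 0.38 (adjusted p = 0.000334). Its counts in cells were 9.27, 10.2 and 5.30 CPM with DMSO and 25.9, 34.7 and 37.1 with GW4869. Its EV values were 30.3, 31.0 and 29.2 with DMSO and 22.8, 18.5 and 17.1 with GW4869, and the cell response (1.96) passed while the EV response (-0.63) did not.

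Mitochondrial tRNAs, which serve the ribosomes inside mitochondria, were already scarce in EVs. Their share of counts was 0.0290, 0.0224 and 0.0237% in DMSO EVs and 0.0149, 0.0137 and 0.0142% in GW4869 EVs, which do not overlap. In cells it was 0.320, 0.341 and 0.353% with DMSO and 0.283, 0.300 and 0.316% with GW4869, also lower with GW4869. All 10 had a ratio change below 0, with a median of -0.77, and 3 of 10 passed (30%, against 5.83% of all features lower). These were mt-Tl1 (leucine) with -1.29 ± 0.38 and an adjusted p of 0.037, mt-Tm (methionine) with -1.10 ± 0.31 and 0.029, and mt-Tp (proline) with -1.07 ± 0.28 and 0.019. None of the 10 passed in the 12-library fit, by DESeq2 or by limma. The 3 were called in 4, 7 and 9 of the 12 fits that leave out 1 library, and all 3 lost the call without GW4869 EVs replicate 1 (-0.92, -1.03 and -0.91), without GW4869 EVs replicate 3 (-1.16, -0.99 and -0.85) and without GW4869 cells replicate 3 (-1.05, -0.89 and -0.97). At an unadjusted p under 0.05 edgeR gave 5 lower and 0 higher.

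For mt-Tp the EV values were 16.8, 15.5 and 10.9 CPM with DMSO and 5.27, 6.30 and 4.9 with GW4869. The EV groups do not overlap, while the cell groups do (363, 374 and 324 with DMSO, 252, 283 and 326 with GW4869). The other 7 had ratio changes of -1.19 (mt-Ts2), -0.86 (mt-Tf), -0.68 (mt-Tc), -0.55 (mt-Tv), -0.54 (mt-Ta), -0.49 (mt-Ti) and -0.38 (mt-Te), with adjusted p from 0.051 to 0.58.

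Small nucleolar RNAs (snoRNAs) guide the chemical modification of rRNA inside the nucleolus, box C/D members (named Snord) for methylation and box H/ACA members (named Snora) for pseudouridine. Of 147 listed, 26 were lower and 0 higher (17.7%, against 5.83% of all features lower, median -0.66). At an unadjusted p under 0.05 edgeR gave 64 lower and 0 higher, against 652 lower and 378 higher of all 4408 features. DESeq2 called 13 lower and limma 3, with 0 higher by either, and 8 of the 26 were called in all 12 fits that leave out 1 library. Snord names had 9 of 59 lower (median -0.74) and Snora and Scarna names 5 of 21 (median -0.57). Across the class the cells moved little (median log2 response -0.12) and the EVs were lower (-0.80).

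Snora33 (chr10:23785347-23785475, minus strand) had the lowest ratio change of a snoRNA. Its GENCODE transcript ends with the ACA box, in capitals here, placed 3 bases before the end.
Snora33: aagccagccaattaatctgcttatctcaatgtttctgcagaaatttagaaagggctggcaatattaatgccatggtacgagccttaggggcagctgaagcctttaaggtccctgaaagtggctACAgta
The EV values were 20.5, 27.9 and 14.6 CPM with DMSO and 6.58, 5.56 and 5.30 with GW4869, which do not overlap. The cell values were 27.8, 27.2 and 21.9 with DMSO and 23.8, 40.0 and 49.5 with GW4869, which overlap. The ratio change was -2.39 ± 0.45 (adjusted p = 0.00178, and 0.032 in the 12-library fit), and -0.46 (adjusted p = 0.43) with stimulated cultures as control.

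The next 2, Gm23451 (chr11:99017031-99017152, minus strand) and Gm24455 (chr9:15313802-15313932, plus strand), are predicted genes with the same ending, shown to compare them with Snora33.
Gm23451: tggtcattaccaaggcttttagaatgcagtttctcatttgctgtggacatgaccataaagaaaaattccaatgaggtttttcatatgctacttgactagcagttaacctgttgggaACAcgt
Gm24455: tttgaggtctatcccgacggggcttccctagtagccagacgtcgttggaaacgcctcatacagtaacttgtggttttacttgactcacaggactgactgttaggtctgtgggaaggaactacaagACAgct
Gm23451 stood at 14.9, 17.3 and 11.4 CPM in DMSO EVs and at 4.39, 3.71 and 2.86 in GW4869 EVs, and Gm24455 at 29.0, 27.4 and 17.7 and at 4.83, 7.78 and 6.53. Neither overlaps in EVs, and both overlap in cells. Their ratio changes were -1.95 ± 0.43 and -1.85 ± 0.32 (adjusted p = 0.00604 and 0.00103), and both passed in the 12-library fit. Snord70 and Gm26448 followed, with -1.84 ± 0.48 and -1.78 ± 0.35, and neither passed in the 12-library fit. With stimulated cultures as control Gm24455 was at -1.07 and passed, Gm23451 at -0.61 and Snord70 at -0.99, which did not pass, and Gm26448 at 0.067.

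The ending ACA 3 bases before the 3' end, searched on the transcript strand, was present in 28 of the 147 snoRNAs (19.0%). Of these 5 were lower, with a median ratio change of -0.42, against 26 lower and -0.66 over all 147. The letters TGATGA in the first 25 bases with CTGA in the last 25 were present in 73 (49.7%). Of these 14 were lower (median -0.69), and 3 snoRNAs held both patterns. The 49 with neither had 7 lower (median -0.61), so the ACA ending did not mark the lower snoRNAs. Snord33 itself, shown above, stood at 65.7, 85.0 and 60.0 CPM in DMSO EVs and at 29.9, 25.6 and 14.7 in GW4869 EVs, without overlap, and its cell groups overlap. That gave a ratio change of -1.46 ± 0.29 (adjusted p = 0.0032, and 0.0887 in the 12-library fit), and of -0.87 with stimulated cultures as control.

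miRNAs pair with mRNAs inside Argonaute proteins and lower their output. Of the 254 listed, 5 were lower (1.97%) and 0 higher, against 5.83% of all features lower. At an unadjusted p under 0.05 edgeR gave 19 lower and 1 higher, and DESeq2 called 4 lower and 0 higher. The median was -0.30 over the miRNAs, -0.08 with library totals in place of TMM scaling and -0.02 without DMSO EVs replicate 2. The miRNA share of counts was 21.5, 31.1 and 25.9% in DMSO EVs and 24.7, 23.6 and 17.8% in GW4869 EVs, which overlap, and 42.3, 40.7 and 39.8% against 33.9, 37.9 and 39.6% in cells, which do not. These shares count copies such as Mir142 and Mir142b, whose counts may be of the same reads, more than once.

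Mir125a (chr17:17830812-17830879, plus strand), whose miR-125a-5p is kin to lin-4, changed in EVs. It stood at 18.6, 23.9 and 18.3 CPM in DMSO EVs and at 6.14, 9.26 and 7.75 in GW4869 EVs, without overlap. In cells it stood at 65.4, 67.0 and 57.0 with DMSO and 69.2, 64.5 and 68.7 with GW4869, which overlap. The ratio change was -1.46 ± 0.40 (adjusted p = 0.025, and 0.078 in the 12-library fit), and it was called in 8 of the 12 fits that leave out 1 library. It did not pass without DMSO cells replicate 3 (-1.40), DMSO EVs replicate 2 (-1.34), GW4869 EVs replicate 1 (-1.19) or GW4869 EVs replicate 3 (-1.32). Mir351, the listed miRNA that shares the miR-125a-5p seed, had a ratio change of -0.06 ± 0.60.

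Mir5121 (chr7:45126918-45126991, minus strand) stood at 53.2, 67.3 and 53.2 CPM in DMSO EVs and at 27.6, 16.7 and 9.79 in GW4869 EVs, without overlap, and its cell groups overlap. This gave a ratio change of -1.78 ± 0.33 (adjusted p = 0.00169), beside -1.46 for Snord33, in which its sequence lies. Mir5121 was at -0.70 with stimulated cultures as control and did not pass. Mir6240 (chr5:114851948-114852064, plus strand) stood at 135, 136 and 119 CPM in DMSO cells and 208, 224 and 197 in GW4869 cells, and at 977, 515 and 417 in DMSO EVs and 249, 312 and 259 in GW4869 EVs. Neither compartment overlaps, and DMSO EVs replicate 1 is the highest. The ratio change of Mir6240 was -1.91 ± 0.33 (adjusted p = 0.00103), and it was the 1 miRNA that also passed in the 12-library fit (adjusted p = 0.047). With the stimulated cultures in place of DMSO as control it was 0.21, so its direction depended on the control. Mir330, which shares the miR-6240 seed, had a ratio change of -0.78 ± 0.36 and an adjusted p of 0.183.

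Mir2137 rose in the cells. Mir2137 (chrX:72992079-72992144, plus strand) stood at 31.3, 29.5 and 32.5 CPM in DMSO cells and 85.4, 80.1 and 76.0 in GW4869 cells, without overlap, and its EV groups overlap. The cell response was 1.37 (adjusted p = 0.0106) and the ratio change -1.54 ± 0.39 (adjusted p = 0.018), which did not pass without GW4869 EVs replicate 2 (-1.35) or 3 (-1.37). Mir2137 lies within the gene Zfp185, whose own ratio change was -2.25 ± 0.35 (adjusted p = 0.00042). Mir6236 had a ratio change of -1.0 ± 0.30 (adjusted p = 0.042), and it was called in 3 of the 12 fits that leave out 1 library, with values from -1.15 to -0.71. With stimulated cultures as control Mir2137 was at 0.080, Mir6236 at 0.24 and Zfp185 at 0.10, each turned in direction.

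The miRNAs that T cells are known for did not pass. Of the activation-induced miRNAs 0 of 11 were called, 0 also at an unadjusted p under 0.05 and by DESeq2, with ratio changes from -0.40 to 0.53. Of all 254 miRNAs 1.97% were lower and 0 higher, so 0 calls in a list this short do not set it apart. Mir155, which T cells raise on activation, stood at 13630, 12920 and 12220 CPM in DMSO cells and 9350, 9517 and 9238 in GW4869 cells. In EVs it stood at 4207, 6752 and 5073 with DMSO and 4005, 3938 and 3014 with GW4869. Its values with GW4869 lie below those with DMSO in both compartments without overlap. The EV response (-0.55, adjusted p = 0.0313) passed and the cell response (-0.46, adjusted p = 0.194) did not. The ratio change of Mir155 was -0.08 ± 0.24 (adjusted p = 0.86), and 0.12 with library totals. Mir21a, Mir132 and Mir210 had ratio changes of 0.01 ± 0.41, -0.12 ± 0.29 and 0.01 ± 0.32. A p over the threshold does not show that these ratios stayed the same, and each of these values lies within 1 SE of 0.

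Of the naive and resting T cell list 0 of 12 were called by edgeR or DESeq2, and 2 were lower at an unadjusted p under 0.05. Here too the edgeR count stands beside 1.97% of all 254 miRNAs lower. Mir150, abundant in naive lymphocytes, stood at 1869, 3088 and 2107 CPM in DMSO EVs and 1429, 1337 and 1094 in GW4869 EVs, without overlap, and its cell groups overlap. The ratio change of Mir150 was -0.90 ± 0.31 with an adjusted p of 0.07, and 0.24 in the 12-library fit. It passed without DMSO EVs replicate 1 (-1.04). Mir142, a miRNA of all blood cells, had a ratio change of -0.47 ± 0.37 (adjusted p = 0.46).

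The let-7 family (12 members, median -0.35), the miR-17-92 cluster with its paralogs (15, -0.35), the miR-15/16 family (6, -0.41), the miR-30 family (6, -0.18) and the miR-23/27/24 clusters (6, -0.29) had 0 calls each by edgeR, at an unadjusted p under 0.05 and by DESeq2. The miR-29 family (4, -0.73) had 0 calls and 2 members lower at an unadjusted p under 0.05. With 1.97% of the 254 miRNAs lower by edgeR, 0 calls in families this small do not set them apart. All 12 let-7 and all 15 miR-17-92 members lay below 0, as did 217 of the 254 miRNAs. Mature arms with GGAG or CCCU, short motifs described for miRNAs sorted into vesicles, occur in 48 of the listed miRNAs with a sequence, and 2 of these were lower (median -0.25). Of the 136 without them 3 were lower (median -0.30).

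**Figure D3:**
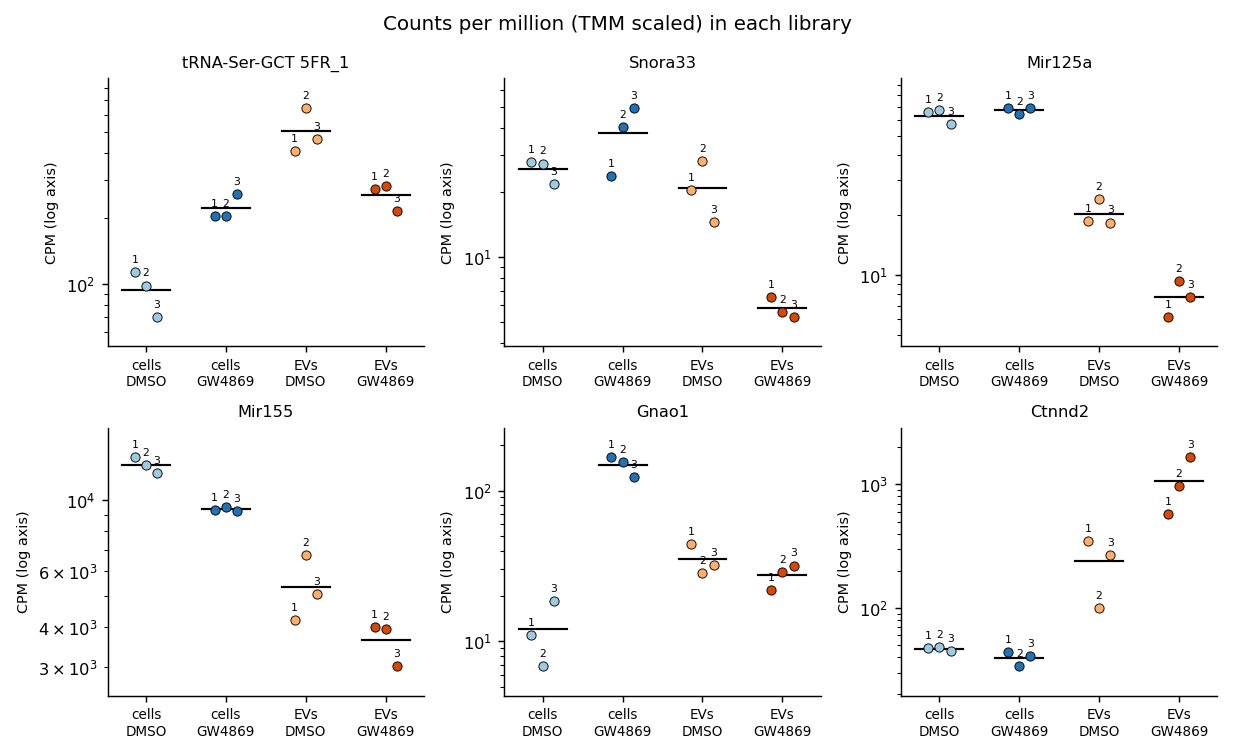
CPM in each library (log y axis, TMM scaled) for 6 features; points are libraries with their replicate number and bars are group means. tRNA-Ser-GCT 5FR_1, Snora33 and Mir125a are lower in GW4869 EVs than in DMSO EVs without overlap, Mir155 is lower in both compartments, Gnao1 is higher in GW4869 cells, and Ctnnd2 is higher in GW4869 EVs.

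Y RNAs bind the Ro60 protein, and the vault RNA belongs to the vault particle; both are known cargo of T cell EVs. None of the 3 passed by edgeR, DESeq2 or limma, nor at an unadjusted p under 0.05. Rny1 stood at 2288, 4757 and 3106 CPM in DMSO EVs and 2321, 2611 and 2181 in GW4869 EVs, which overlap, with the highest value in DMSO EVs replicate 2. Its ratio change was -0.34 ± 0.28, that of Rny3 -0.56 ± 0.30 and that of Vaultrc5 -0.48 ± 0.44, with adjusted p from 0.27 to 0.54.

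Lower calls in other classes are set beside the 5.83% of all features that were lower. Of 70 rRNA features 4 were lower (5.71%, about that share, median -0.20), and without DMSO EVs replicate 2 that median was 0.23. Of 57 snRNAs, the RNAs of the spliceosome, 1 was lower (1.75%, against 5.83%). It was Rnu11 of the minor spliceosome, with -1.34 ± 0.32 (adjusted p = 0.00986). Rmrp, the RNA of RNase MRP, was lower as well, with -1.02 ± 0.31 (adjusted p = 0.041). Of 31 loci annotated as miRNA without a miRNA name, 7 were lower (22.6%, against 5.83% of all features, median -0.64). DESeq2 called 4 of the 31 lower, the 12-library fit 1, library totals 1 and the fit without GW4869 EVs replicate 3 called 0. Of the 7, 0 were called in all 12 fits that leave out 1 library. The transcripts of Gm24270, Gm23935 and Gm24245, which are 3 of these 7, are identical in GENCODE M21, so they may count the same reads.
Gm24270: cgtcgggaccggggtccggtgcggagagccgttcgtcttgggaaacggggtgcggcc
Gm24270 had a ratio change of -1.46 ± 0.37 (adjusted p = 0.0167, and 0.047 in the 12-library fit), and of 0.16 with stimulated cultures as control.

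Long genes without a listed small RNA moved both ways. Their counts are of small fragments assigned to protein-coding and non-coding genes and are no mRNA level, and whether introns were counted is not stated. Of 2828, 76 were higher (2.69%) and 134 lower (4.74%), with a median ratio change of 0.23. That median was 0.12 without DMSO EVs replicate 2 and 0.38 with library totals. Their summed share of counts went the other way on the log2 scale (-0.15, p = 0.675, exact permutation test, two-sided), since the share was higher in GW4869 cells as well. It was 44.7, 26.8 and 37.0% in DMSO EVs, 39.0, 40.7 and 50.6% in GW4869 EVs, 12.4, 12.3 and 13.7% in DMSO cells and 18.4, 16.9 and 16.5% in GW4869 cells. The cell groups do not overlap and the EV groups do.

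Gnao1 (chr8:93809966-93969388, plus strand), which encodes a G protein alpha subunit best known from neurons, had the lowest ratio change of all 4408 features. It stood at 11, 6.81 and 18.6 CPM in DMSO cells and at 166, 155 and 123 in GW4869 cells, without overlap. In EVs it stood at 44.2, 28.3 and 32.3 with DMSO and 21.9, 28.9 and 31.8 with GW4869, which overlap. The response in cells was 3.62 (adjusted p = 2.1e-08), and the ratio change was -3.96 ± 0.40 (adjusted p = 1.27e-06, and 0.00136 in the 12-library fit).

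Lztr1 (chr16:17508688-17526333, plus strand), an adaptor of a ubiquitin ligase for RAS proteins, fell in EVs (response -1.88, adjusted p = 0.000113). It stood at 26.1, 24.4 and 29.2 CPM in DMSO cells and 50.8, 47.4 and 36.2 in GW4869 cells, and at 81.2, 177 and 122 in DMSO EVs and 35.1, 42.2 and 25.3 in GW4869 EVs, without overlap in either. This gave -2.63 ± 0.38 (adjusted p = 0.000314). Gm15662, Gm26870 and Ddx39 followed with -2.46 ± 0.38, -2.21 ± 0.39 and -2.15 ± 0.41. All of these 5 were called in every fit that leaves out 1 of the 12 libraries, and all but Ddx39 in the 12-library fit. Against stimulated cultures Gnao1 (-2.18) and Lztr1 (-2.21) passed, Gm15662 (-0.59) and Ddx39 (-0.68) did not, and Gm26870 was at 0.59.

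The highest ratio changes were those of Dpp10 (3.05 ± 0.83), Coro2b (2.71 ± 0.70), Ctnnd2 (2.39 ± 0.49), Gm29371 (2.36 ± 0.70) and Tpm4 (2.35 ± 0.62), with adjusted p from 0.0038 to 0.037. Ctnnd2 (chr15:30172593-31029341, plus strand), the delta-catenin of neuronal junctions, stood at 351, 100 and 270 CPM in DMSO EVs and at 576, 967 and 1652 in GW4869 EVs. The EV groups do not overlap, and the lowest DMSO value is that of EV replicate 2. Ctnnd2 in cells stood at 47.5, 48.3 and 45.1 with DMSO and 43.8, 33.7 and 41.2 with GW4869, lower without overlap. It was called in the 12-library fit (adjusted p = 0.045) and in all 12 fits that leave out 1 library. The other 4 were not called in the 12-library fit.

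Dpp10 rests in part on 1 library. In DMSO cells it stood at 89.8, 10.2 and 13.9 CPM and in GW4869 EVs at 166, 224 and 480. The ratio change was 1.39 without DMSO cells replicate 1, and it was called in 7 of the 12 fits that leave out 1 library. Coro2b and Tpm4 were called in 9 of them and Gm29371 in 4, and without GW4869 EVs replicate 3 Coro2b was at 1.72 and did not pass.

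Of the 214 long genes that hold a listed small RNA, 17 were lower and 1 was higher, with a median ratio change of -0.33. The lower calls were 7.94%, against 5.83% of all features and 7.76% of small RNA features. The 12-library fit called 1 lower and 1 higher, and 3 were lower without GW4869 EVs replicate 3.

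The direction differed with the annotated length of the gene, which GENCODE M21 gave for 2740 of the 2828. The median length was 171 kb for the 74 with a higher ratio, 51.7 kb for the 129 with a lower ratio and 125 kb for the 2537 not called. The median ratio change was -0.34 for the 291 genes under 20 kb, -0.14 from 20 to 50 kb, 0.14 from 50 to 100 kb and 0.23 from 100 to 200 kb. It was 0.40 from 200 to 400 kb and 0.57 for the 343 genes over 400 kb. Without DMSO EVs replicate 2 the ends were -0.24 and 0.41, and with library totals -0.15 and 0.72. The log2 EV-to-cell ratio itself ran from -0.09 for the shortest to 1.11 for the longest genes with DMSO, from -0.41 to 1.60 with GW4869 and from -0.52 to 0.73 in stimulated cultures.

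**Figure D4:**
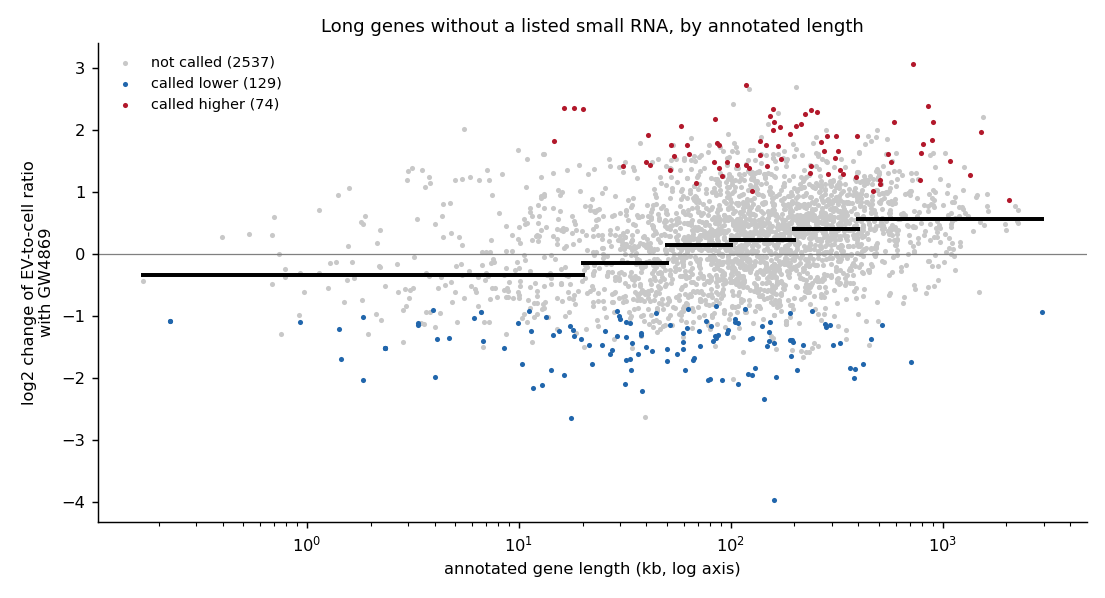
Ratio change (log2, y axis) of 2740 long genes without a listed small RNA against annotated gene length (kb, log x axis); black bars are medians of 6 length ranges. The medians go from -0.34 under 20 kb to 0.57 over 400 kb.

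For whole classes, the log2 shares of counts were compared by a two-sided exact permutation test that exchanges the GW4869 and DMSO labels within EVs and within cells (400 arrangements, smallest possible p 0.005), with adjustment over 22 comparisons. None passed. By this exact test the lowest unadjusted values were those of 3FR_S tRNA fragments (-1.27, p = 0.03), 5FR_1 fragments (-0.64, p = 0.035) and snoRNAs (-0.54, p = 0.05), each with an adjusted p of 0.367. The snoRNA share was 0.547, 0.630 and 0.568% in DMSO EVs and 0.422, 0.425 and 0.367% in GW4869 EVs, which do not overlap, and 2.35, 2.35 and 2.32% against 2.73, 2.25 and 2.17% in cells, which do. In the same exact test mitochondrial tRNAs gave -0.63 (p = 0.1), nuclear tRNAs -0.27 (p = 0.14), rRNA -0.30 (p = 0.19) and miRNAs -0.10 (p = 0.705).

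**Figure D5:**
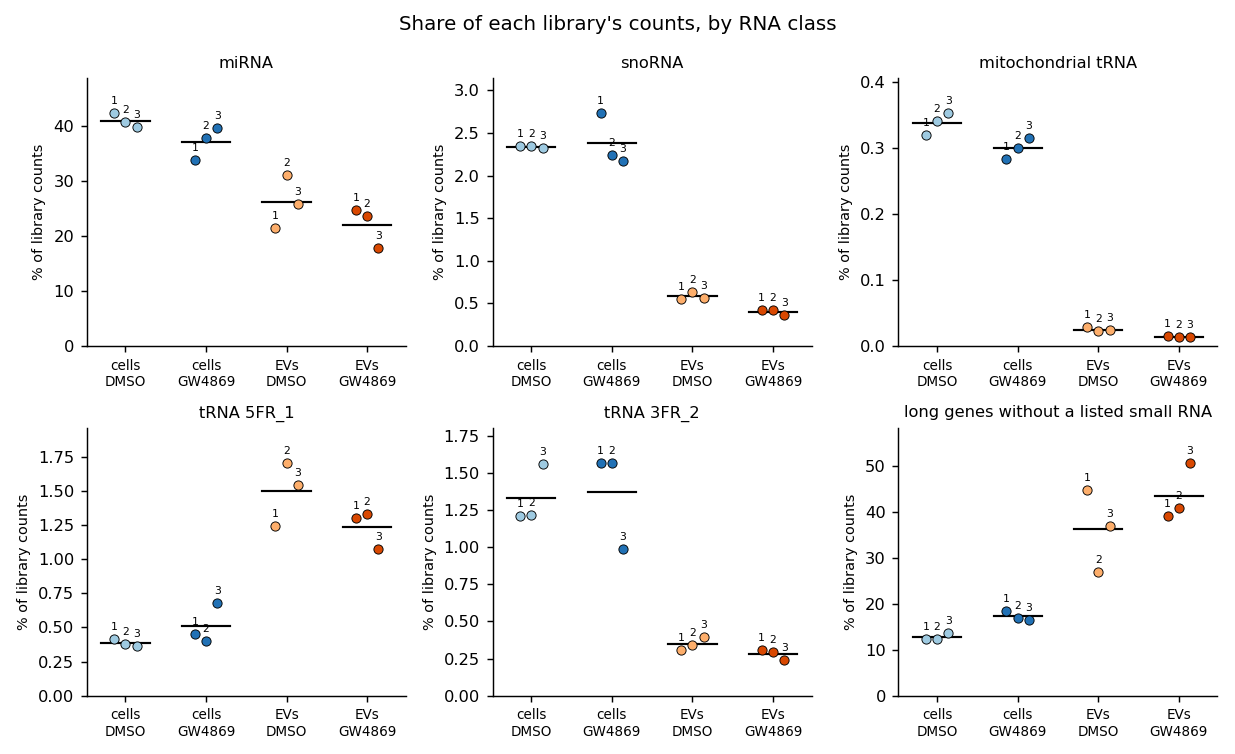
Percent of each library's counts in 6 classes (y axis from 0); points are libraries with their replicate number and bars are group means. The snoRNA and mitochondrial tRNA shares of GW4869 EVs lie below those of DMSO EVs, while miRNA, 5FR_1 and long gene shares overlap in EVs.

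Markers were checked in the 12 libraries. Of the 7 miRNAs that define the labelled blood and T cells 6 were listed, with summed levels of 87350 to 118200 CPM in DMSO cells, 60840 to 107500 in GW4869 cells, 35570 to 69870 in DMSO EVs and 21020 to 33040 in GW4869 EVs. The myeloid, muscle and stromal lists were not analysed here, since 0 of their members matched. Of the erythroid list Mir451a alone was found, at 42.0 to 49.8, 31.3 to 46.3, 31.1 to 53.6 and 13.5 to 27.2 CPM in the same order of groups. The platelet and endothelial list summed to 60.4 to 317 CPM over all 12 libraries, the liver list to 35.1 to 153 and the epithelial list to 35.1 to 145, each with its lowest library among the GW4869 EVs. None of their ratio changes was called, and their part in the results was not tested. Totals ran from 1290918 to 2579407 counts over the 12 libraries and from 1290918 to 1663560 in GW4869 EVs, and depths were not matched.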

How the data were processed

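Libraries of small RNA from T cells and from EVs were analysed from the deposited count files, which per the file headers hold 1 whole-number count per feature. Per the submitters' processing notes, Bowtie and the builds GRCm38 and mm10 were used; versions, trimming, multi-mapping, strand and the counting tool are not given in the sources used here. Each file held 4441 lines, of which 33 repeated another in full and were dropped. The smallest count was 4, so the files hold features seen in every library. Reads of a small RNA may also count for the gene around it, so 214 such hosts were kept apart from 2828 other long genes.

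edgeR 4.0.16 (R 4.3.3) fitted 1 mean per group over 24 libraries and 8 groups with TMM scaling (glmQLFit, glmQLFTest). filterByExpr (minimum count 10) removed 0 features. Benjamini-Hochberg adjustment ran over 4408 features, with calls under 0.05. SE was derived from the test, as the absolute log2 contrast divided by the square root of its quasi-likelihood F statistic. CPM are edgeR's counts scaled by TMM library size. Coordinates are GENCODE M21 (GRCm38, counted from 1). The model was tested on simulated data in which each feature had the same dispersion in every group. That leaves out the larger spread of the DMSO and GW4869 EVs, so it does not measure errors under that spread. Alternatives were library totals, RLE factors, a mean count of 50, 12 libraries only, DESeq2 1.42.0, limma-trend (limma 3.58.1), libraries or replicate numbers left out, a replicate block, summed tRNA loci without hosts, and stimulated cultures as control.

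Named features were, among called ones, the 5 highest and 5 lowest miRNAs, snoRNAs, long genes (mean count of at least 50) and tRNA sums, a fixed set of T cell miRNAs, Y RNAs, vault RNA and mitochondrial tRNAs, and up to 2 per list. Mir146a of that set was not analysed here. Some named features are not reported here. Members and lists were chosen with earlier results of these data known. No label tells whether libraries of 1 group are separate cultures or mice, so p-values measure the spread between these libraries, which may be technical.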

Additional observations from a re-analysis of the deposited data

Results flagged for a closer look

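For 7 of the features named, the response to GW4869 differed between the compartments by the interaction test, with the EV and the cell response each past an adjusted p of 0.05 in opposite directions (edgeR). Zfp185, a long gene that holds Mir2137, had a ratio change of -2.25, from 240, 212 and 195 CPM in DMSO cells to 527, 429 and 428 in GW4869 cells, and from 1387, 781 and 635 in DMSO EVs to 337, 439 and 490 in GW4869 EVs. The serine tRNA features are 1 pattern: the tRNA-Ser-GCT 5FR_1 sum (-2.22) and its loci tRNA-Ser-GCT-6-1 (-2.69) and tRNA-Ser-GCT-4-1 (-2.65), whose reads may be the same. The long genes Cd44 (-2.03), Arhgap21 (-1.94) and Jarid2 (-1.64), chosen after their values were seen, had responses of -0.86, -1.04 and -0.78 in EVs and 1.16, 0.90 and 0.86 in cells. All 7 were called in each of the 12 fits that leave out 1 library and in the 12-library fit. Cd44, Arhgap21 and Jarid2 were picked from features called in the 12-library fit, so for them that call was fixed by the choice. The tRNA features were still called with stimulated cultures as control (-1.88, -1.80 and -2.21, in the order above), while the 4 long genes turned and did not pass, at 0.10 (Zfp185), 0.21 (Cd44), 0.27 (Arhgap21) and 0.043 (Jarid2).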

How the results depend on the processing

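Calls of ratio changes (334, with 77 higher and 257 lower) came to 162 (35 and 127) with library totals, 45 (9 and 36) in 12 libraries only, 174 (50 and 124) by DESeq2, 67 (21 and 46) by limma-trend and 1387 (718 and 669) with stimulated cultures as control. They ran from 117 to 529 (higher 21 to 161, lower 72 to 368) without single libraries or replicate numbers, lowest without replicate 3 and highest without DMSO EVs replicate 1. Calls of the DMSO against stimulated contrast ran from 536 (without stimulated cells replicate 3) to 1284 (without DMSO EVs replicate 2). The causes were not tested. RLE factors and a mean count of at least 50 kept the total within 1.5 times.

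Same-numbered libraries had correlations of their deviations from -0.37 to 0.16, both ends between DMSO EVs and GW4869 EVs. Between cells and EVs of the same treatment they ran from -0.098 to 0.12. With 3 libraries a group such correlations can neither show nor exclude a pairing. The main fit uses no pairing, and fits with a block are given beside it. With a replicate block by number the calls were 10 (2 and 8), and by number within DMSO and GW4869 cultures 42 (19 and 23).

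With stimulated cultures as control these ratio changes turned: Mir6240 0.21, Mir2137 0.080, Mir6236 0.24, Gm26448 0.067, Gm26870 0.59, mt-Ti 0.15, Zfp185 0.10, Cd44 0.21, Arhgap21 0.27, Jarid2 0.043, AC121821.1 0.029, Gm24270 0.16, Gm24601 0.14, n-R5-8s1 0.038, Mir21a -0.81 and Mir210 -0.48. Mir155 was 0.12 with library totals, 0.055 in 12 libraries, 0.071 by limma-trend and 0.062 (by number) and 0.071 under the replicate blocks. Mir132 was 0.11, 0.017, 0.10, 0.058 and 0.10 in the same order. At a mean count of at least 50 Mir21a was -0.057 and Mir210 -0.038. Leaving libraries or numbers out gave -0.92 to 0.20 for Mir142, -0.23 to 0.21 for Mir155, -0.27 to 0.67 for Mir21a, -0.33 to 0.23 for Mir132, -0.20 to 0.31 for Mir210 and -0.92 to 0.081 for mt-Te. Over all named features and alternatives, 1075 values of called features kept direction and call, 566 lost the call and 13 turned.

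Of the share changes, miRNA was 0.025 and 5FR_S 0.091 against the small RNA total, and 5FR_S 0.066 against miRNA counts. In percentage points mitochondrial tRNA was 0.027 and long genes 2.75. With stimulated cultures as control nuclear tRNA was -0.68, rRNA 0.10, long genes 0.81, 3FR_2 -0.90, 5FR_1 -0.85, 5FR_2 -0.49, 5FR_S -0.45 and 5_half_up -0.36. Leaving numbers or DMSO EVs replicate 2 out gave -0.32 to 0.00277 for Y and vault RNA, -0.38 to 0.052 for the tRNA to miRNA ratio, -0.35 to 0.16 for long genes, -0.41 to 0.11 for miRNA, -0.55 to 0.042 for rRNA, -0.46 to 0.065 for snRNA, -0.36 to 0.23 for 3FR_1_down, -1.14 to 0.077 for 3FR_1_up, -0.34 to 0.12 for 3_half_up, -0.17 to 0.063 for 5FR_S and -0.033 to 0.23 for 5_half_up. The ratio to miRNA counts and the shares without DMSO EVs replicate 2 were chosen after seeing the data.

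With 3 libraries a group, the permutation test of shares cannot go below p = 0.005.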

Other observations

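Genes named here were chosen after their values were seen, from the 45 features called both in the 24-library and in the 12-library fit. Cd44, the adhesion receptor that rises on activated T cells (chr2:102811141-102901665), stood at 191, 183 and 172 CPM in DMSO cells and 424, 373 and 429 in GW4869 cells, and at 1871, 1118 and 868 in DMSO EVs and 489, 715 and 919 in GW4869 EVs. Its ratio change was -2.03 ± 0.33 (edgeR adjusted p = 0.000522). The cell groups do not overlap, the EV groups do, and DMSO EVs replicate 1 is the highest, as it is for Arhgap21 (-1.94 ± 0.29) and Jarid2 (-1.64 ± 0.26). These ratio changes turned with stimulated cultures as control, to 0.21 (Cd44), 0.27 (Arhgap21) and 0.043 (Jarid2), and none passed.

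Dock8, an exchange factor for CDC42 that T cells need to migrate (chr19:24999534-25202432), went the other way. It stood at 37.8, 16.4 and 38.9 CPM in DMSO EVs and 78.6, 84.1 and 82.4 in GW4869 EVs, and at 12.2, 12.5 and 9.28 in DMSO cells and 8.11, 5.86 and 7.33 in GW4869 cells, without overlap in either compartment. Its ratio change was 2.06 ± 0.47 (adjusted p = 0.0075), and 1.79 with stimulated cultures as control (adjusted p = 0.0063).

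Of the 45, 27 were long genes without a listed small RNA (8 higher, 19 lower), 11 were nuclear tRNA features, 3 snoRNAs, 1 a miRNA, 1 a locus annotated as miRNA and 2 host genes (1 higher, 1 lower).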
